A study of Sus scrofa with 8 samples.

Results

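CD21+ and CD3+ cells of the normal pig (Sus scrofa) spleen were compared by RNA sequencing, with 1 library of each. They are 2 of the 8 samples of a study of a porcine B cell lymphoma line, and both were chosen by their labels alone. Per the labels, each was made from splenocytes enriched with magnets for the named surface protein, and the study set them up as its normal B cell and normal T cell controls. The other 6 libraries, of cultured lymphoma clones (4 of lymph node and 2 of spleen origin), are not described here. RNA was taken from equal numbers of cells by column and read from both ends on an Illumina HiSeq instrument. For the CD21+ and CD3+ cells the labels give no genotype, strain, age, treatment or culture step, and do not say whether they came from 1 animal, from several or from a pool. With 1 library on each side there is no replicate check. What follows describes these libraries by levels and ratios, without a test.

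CD21 is complement receptor 2, which mature B cells carry and which lowers the threshold for antigen seen by the B cell receptor. That receptor is a surface immunoglobulin that signals through the CD79A and CD79B chains, the kinases LYN and SYK and the adaptor BLNK. CD3 is the group of chains (CD3D, CD3E, CD3G and CD247) that signals for the T cell receptor, through the kinases LCK and ZAP70 and the adaptors LAT and LCP2. In the spleen, B cells lie in follicles and in the marginal zone and T cells around the arterioles. Pigs are known for a large share of T cells with the gamma delta receptor, beside the CD4 and CD8 T cells with the alpha beta receptor.

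Genes of these receptor systems differed widely between the libraries. MS4A1 and CD79B, surface proteins of B cells, had 1107 and 777 CPM in the CD21+ library and 7.05 and 5.18 CPM in the CD3+ library. CD3E and TRDC, the epsilon chain of CD3 and the constant region of the delta T cell receptor chain, had 14.2 and 22.6 CPM in the CD21+ library and 2078 and 2251 CPM in the CD3+ library. CPM here means counts per 1000000 of the library total after scaling by the trimmed mean of M values (TMM), which sets the bulk of the genes level. Since no gene lengths were used, CPM values are compared between libraries for 1 gene and never between genes. In bulk samples such as these, fewer cells of a type and less RNA per cell cannot be told apart.

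Of 22366 features in the count table, 11723 reached 1 CPM in either library. Among them, 747 were at least 4-fold higher in the CD21+ library (6.37% of the 11723) and 1109 at least 4-fold higher in the CD3+ library (9.46%). At 2-fold the counts were 1569 (13.4%) and 1945 (16.6%), and 8209 features (70.0%) lay within 2-fold. Scaling to all reads without TMM turned the order of the 2-fold counts, with 1832 higher in CD21+ and 1752 in CD3+. The 13.4% and 16.6% are the background for the 2-fold counts of list members below. A list member under 1 CPM in 1 library passed the filter through the other alone, so its side was fixed beforehand. The same holds for the features behind these shares. The 747 features held 7.01% of all counts in CD21+ and 0.708% in CD3+. The 1109 features held 0.484% of all counts in CD21+ and 5.98% in CD3+. The share of features past 4-fold varied with level. Among the 2956 features whose higher level was 1 to 10 CPM, 343 (11.6%) were higher in CD21+ and 593 (20.1%) in CD3+. Among the 2044 features at 100 to 1000 CPM these were 126 (6.16%) and 129 (6.31%). At 1000 CPM and above, 11 of 129 features (8.53%) were higher in CD21+ and 6 (4.65%) in CD3+.

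**Figure D1:**
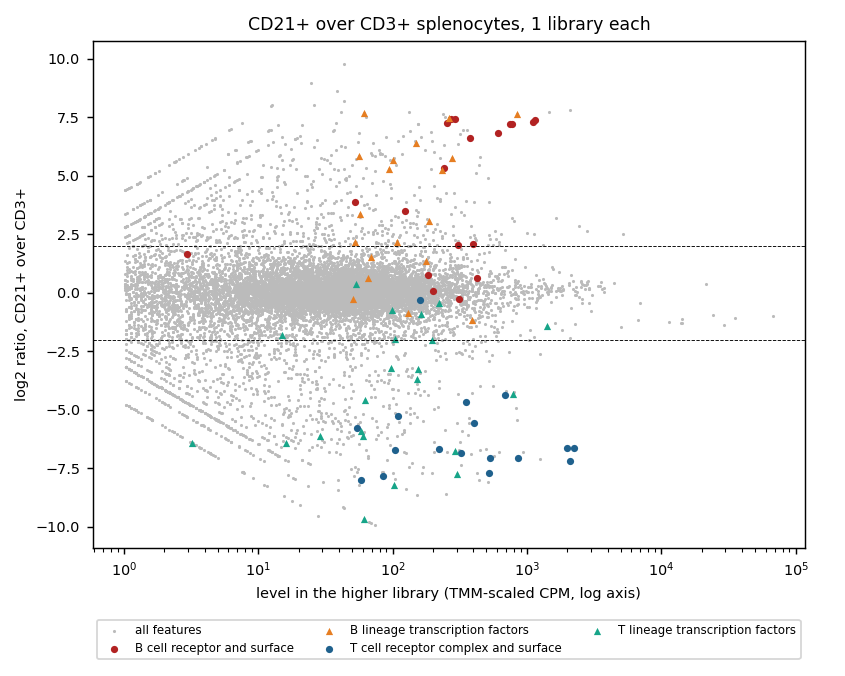
The log2 ratio of CD21+ over CD3+ (y axis) is plotted against the level in the higher library in TMM-scaled CPM (x axis, logarithmic) for the 11723 features at 1 CPM or more, with 4 gene lists in colour and dashed lines at 4-fold; a count of 0 was set to 3 counts. The B cell receptor and surface genes reach a log2 ratio of 7.43 and the T cell genes one of -9.65, while most features lie between the lines.

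The libraries held 25156849 counts (CD21+) and 21292294 counts (CD3+), so that 1 count came to 0.0379 CPM in the CD21+ library and 0.0493 CPM in the CD3+ library. A count of 0 allows up to 3 counts, which is 0.114 CPM in the CD21+ library and 0.148 CPM in the CD3+ library. Where a library had no count, a ratio is given as "at least" the fold against that floor, which leaves out the counting error of the other library. Intervals of ratios are exact 95% counting intervals (Clopper-Pearson), and they and the floors cover counting error only. Mitochondrially encoded genes made up 10.9% of the CD21+ counts and 21.6% of the CD3+ counts, and the 10 most abundant features took 13.1% and 22.3% of them. The part of this difference in the ratios was not tested. Against the TMM-scaled ratios, scaling to totals without mitochondrial genes, and without TMM, moved the log2 ratios by -0.04. Scaling to all reads without TMM moved them by 0.14. These scalings differ from each other only in the mitochondrial genes, so the -0.04 alone does not give the effect of leaving those genes out.

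The labels were checked first on the receptors they name. Among the features, 14404 were detected in CD21+ and 14607 in CD3+, but no feature carried the symbol CR2, the gene of CD21, so its level is not analysed here. The CD3 genes lie together on chromosome 9 (RefSeq, Sscrofa11.1), with CD3E at 45619730-45633972, CD3D at 45640475-45644153 and CD3G at 45645243-45656779. CD3E had 375 counts (14.2 CPM) in the CD21+ library and 42135 counts (2078 CPM) in the CD3+ library, 146-fold more in the CD3+ library. CD3D stood at 3.98 CPM in CD21+ and 528 CPM in CD3+, and CD3G at 6.47 CPM in CD21+ and 852 CPM in CD3+. CD247, the zeta chain, had 20.3 CPM in CD21+ and 1999.6 CPM in CD3+. The interval of the CD3E ratio ran from 132-fold to 162-fold, so the CD21+ library held 0.683% of the CD3+ level.

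CD4, the co-receptor of helper T cells, had 26 counts (0.984 CPM) in the CD21+ library and 2098 counts (103 CPM) in the CD3+ library, a log2 ratio of -6.72 with a counting interval from -7.33 to -6.16. CD8A, a chain of the CD8 co-receptor of cytotoxic T cells that is also found on other lymphocytes, was less one-sided. It had 13.8 CPM in the CD21+ library, 3.92% of its 353 CPM in the CD3+ library (log2 -4.67, interval -4.83 to -4.52). CD8B, the beta chain that conventional cytotoxic T cells add, had 6 counts in CD21+ and 1189 in CD3+, which is 0.227 CPM in CD21+ and 58.6 CPM in CD3+ (log2 -8.01). The 2 CD8 genes are neighbours on chromosome 3, at 57999228-58029768 (CD8A) and 57968358-57986450 (CD8B).

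MS4A1, which encodes CD20, lies at 11216238-11229060 on chromosome 2 and overlaps MS4A4A by 2915 bases. It had 29246 counts in CD21+ and 143 in CD3+, a ratio of 157-fold (log2 7.29, interval 7.06 to 7.54). CD79B, on chromosome 12 at 15052966-15056441, had 777 CPM in CD21+ and 5.18 CPM in CD3+ (log2 7.23, interval 6.95 to 7.52). The 5 markers thus each lay on the side of their label.

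**Figure D2:**
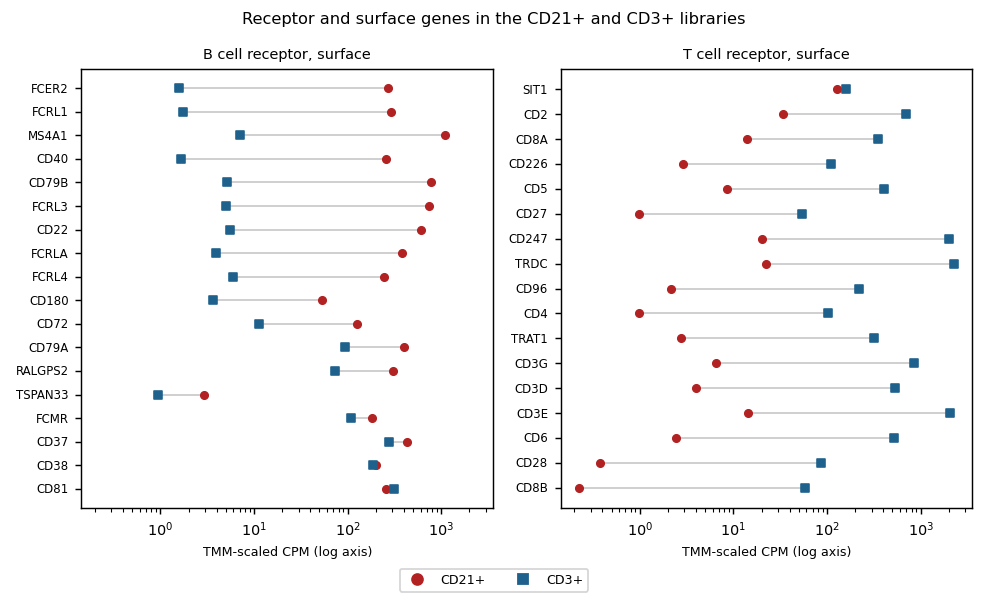
Levels of the B cell receptor and surface genes (left) and of the T cell receptor complex and surface genes (right) in the CD21+ library (circles) and the CD3+ library (squares), in TMM-scaled CPM on a logarithmic axis; each point is 1 library. MS4A1 stands at 1107 CPM in CD21+ and 7.05 CPM in CD3+, CD3E at 14.2 CPM in CD21+ and 2078 CPM in CD3+, and CD81, CD38 and SIT1 are at close levels in both.

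The level of the genes of 1 lineage in the library of the other differed widely by gene. Among 17 T cell receptor and surface genes, the CD21+ level was 0.387% to 80.7% of the CD3+ level, with a median of 0.977%. It was under 1% for 9 genes and from 1% to 5% for 7. The exception was SIT1, an adaptor that binds signalling proteins below lymphocyte receptors, with 129 CPM in CD21+ and 159 CPM in CD3+; it overlaps LOC110255822 by 350 bases. CD2, an adhesion receptor of T and NK cells, stood highest among the others at 4.88%, with 33.6 CPM in CD21+ and 689 CPM in CD3+.

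In the reverse direction, 19 B cell receptor and surface genes had a CD3+ level of 0.578% to 121% of the CD21+ level, with a median of 2.48%. For 8 genes it was under 1% and for 2 it was 1% to 5%. The other 9 were CD81, CD38, CD37, FCMR, TSPAN33, RALGPS2, CD79A, CD72 and CD180. CD79A and CD79B, which form 1 dimer on the B cell surface, were unlike in this. CD79A, at 49996116-49999294 on chromosome 6, had 10427 counts (395 CPM) in the CD21+ library and 1907 counts (94 CPM) in the CD3+ library. The CD3+ level was thus 23.8% of the CD21+ level for CD79A, but 0.667% for CD79B. For MS4A1 it was 0.637%.

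**Figure D3:**
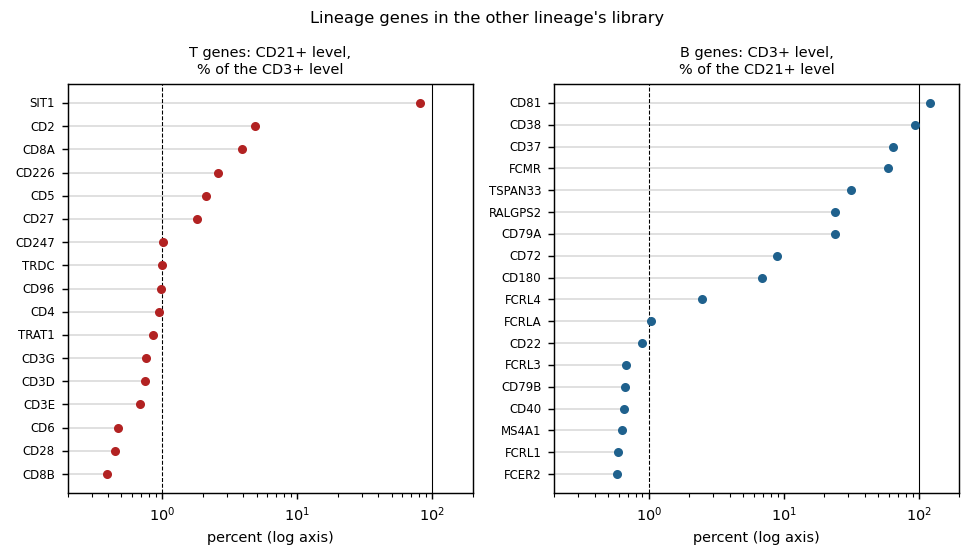
The left panel shows, for T cell genes, the CD21+ level as a percent of the CD3+ level, and the right panel, for B cell genes, the CD3+ level as a percent of the CD21+ level; both axes are logarithmic, with lines at 1% and 100%. Under 5% lie 16 of 17 T cell genes, from CD8B at 0.387%, and 10 of 19 B cell genes measured (not all are drawn), from FCER2 at 0.578%, whereas CD79A lies at 23.8% and SIT1 at 80.7%.

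The marker lists of other spleen cells had counts in both libraries. Of 19 myeloid genes at 1 CPM or more, 12 were at least 2-fold higher in CD21+ and 2 in CD3+. The shares of all features were 13.4% and 16.6%. The median log2 ratio of the list was 1.12. The sum over all 24 matched myeloid genes was 344 CPM in the CD21+ library and 653 CPM in the CD3+ library, where most of it was ITGAM. The neutrophil and monocyte genes S100A8, S100A9 and S100A12 had 4.39, 8.14 and 9.69 CPM in the CD21+ library and no count in the CD3+ library, which makes them at least 29.7-fold, 55-fold and 65.5-fold higher in CD21+. VSIG4, a complement receptor of tissue macrophages, had 157 counts in CD21+ and 2 in CD3+, a ratio of 60.3-fold with an interval from 16.4 to 502. CD163, which takes up haemoglobin into macrophages, had 13.5 CPM in CD21+ and 5.13 CPM in CD3+. The complement genes of macrophages C1QA and C1QB were close to level, with 25.5 and 30 CPM in the CD21+ library and 25.7 and 31.7 CPM in the CD3+ library. CD14 and MRC1 stayed under 1 CPM in both, and MPO and ELANE, granule genes of neutrophil precursors, had no count in either.

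ITGAM, the alpha chain of complement receptor 3 and a marker of myeloid and NK cells, went the other way from most of that list. It had 117 CPM in CD21+ and 488 CPM in CD3+ (log2 -2.06) and overlaps LOC110259903 by 39539 bases. FCER1A, a chain of the IgE receptor of mast cells and basophils, had 2.42 CPM in CD21+ and 22.9 CPM in CD3+, and it overlaps LOC100520241 over its whole length of 6582 bases.

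Of 6 erythroid and platelet genes at 1 CPM, 1 was 2-fold higher in CD21+ and 3 in CD3+, and the summed level of the 18 matched was 91.1 CPM in CD21+ and 137 CPM in CD3+. PPBP, a platelet chemokine, had 336 counts in CD21+ and 1 in CD3+ (12.7 and 0.0493 CPM), a ratio of 258-fold with an interval from 46 to 10219. GP9, part of the platelet receptor for von Willebrand factor, lay on the other side at 1.82 CPM in CD21+ and 8.19 CPM in CD3+, and HBB, the beta globin of red cells, at 2.95 CPM in CD21+ and 6.76 CPM in CD3+. The platelet and red cell genes therefore did not share a direction. Of 14 genes of stroma, endothelium and follicular dendritic cells, 3 were 2-fold higher in CD21+ and 6 in CD3+. Over all features the shares were 13.4% and 16.6%. The summed levels of the 24 matched stroma, endothelium and follicular dendritic genes were 253 CPM in CD21+ and 161 CPM in CD3+. LYVE1, a hyaluronan receptor of lymphatic and sinus endothelium, had 4.13 CPM in the CD21+ library and no count in the CD3+ library, at least 27.9-fold higher in CD21+. FN1, fibronectin, had 45.4 CPM in CD21+ and 4.59 CPM in CD3+. COL1A1 and COL1A2, collagen chains of fibroblasts, had 0.454 and 1.14 CPM in CD21+ and 3.01 and 6.07 CPM in CD3+. The part of these cells in the results below was not tested.

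Among the surface genes of B cells, 15 of 19 were at least 2-fold higher in the CD21+ library, 0 in the CD3+ library and 4 within 2-fold, against 13.4% and 16.6% of all features. The median log2 ratio was 5.33, against 0.0037 over all features. CD22, an inhibitory lectin that recognises sialic acid, stood at 612 CPM in CD21+ and 5.47 CPM in CD3+. CD40, through which helper T cells license B cells, had 254 CPM in CD21+ and 1.68 CPM in CD3+ (log2 7.24). FCER2, the low-affinity receptor for IgE and a marker of follicular B cells, reached 273 CPM in CD21+ and 1.58 CPM in CD3+ (log2 7.43).

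The Fc receptor-like family was on the same side. FCRL3 had 744 CPM in CD21+ and 5.03 CPM in CD3+ (log2 7.21) and FCRL1 had 292 CPM in CD21+ and 1.73 CPM in CD3+ (log2 7.4). FCRL4, in human a receptor of memory B cells in mucosal tissue, had 242 CPM in CD21+ and 6.02 CPM in CD3+. FCRLA, a member that stays inside the cell, stood at 376 CPM in CD21+ and 3.9 CPM in CD3+. CD72, a B cell co-receptor that dampens signalling, and CD180, a relative of the Toll-like receptors, had smaller ratios, with log2 values of 3.48 and 3.86.

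The members within 2-fold were tetraspanins and receptors shared by lymphocytes. CD81, which belongs to the CD21 complex of B cells, had 259 CPM in CD21+ and 313 CPM in CD3+. CD37, another tetraspanin, had 428 CPM in CD21+ and 277 CPM in CD3+, and the NAD-cleaving enzyme CD38 had 199.8 CPM in CD21+ and 189 CPM in CD3+. FCMR, the receptor for IgM, stood at 183 CPM in CD21+ and 108 CPM in CD3+, and it overlaps IL24 by 1464 bases.

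B lineage transcription factors followed the surface genes, with 15 of 19 at least 2-fold higher in CD21+, 1 in CD3+ and a median log2 ratio of 3.36. PAX5, which commits cells to the B lineage, lies on chromosome 1 at 237574938-237785454 and had 22106 counts in CD21+ and 86 in CD3+ (837 and 4.24 CPM). Its log2 ratio was 7.62, with an interval from 7.32 to 7.95. EBF1, which acts with PAX5, had 61.1 CPM in CD21+ and 0.296 CPM in CD3+ (log2 7.69); it overlaps LOC106506547 by 16108 bases. SPIB, an ETS factor of B cells, stood at 264 CPM in CD21+ and 1.48 CPM in CD3+, and its relative SPI1, shared by B and myeloid cells, at 93.6 CPM in CD21+ and 2.42 CPM in CD3+. BCL11A, a zinc finger factor needed for B cells, had 151 CPM in CD21+ and 1.78 CPM in CD3+; its relative BCL11B is given with the T cell genes. POU2AF1, a B cell coactivator of octamer factors, had 235 CPM in CD21+ and 6.16 CPM in CD3+, and MEF2C, which acts below the B cell receptor, had 279 CPM in CD21+ and 5.23 CPM in CD3+.

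Factors that both lineages use were closer. BACH2, a repressor that holds back effector and plasma cell fates, had 41.7 CPM in CD21+ and 50.8 CPM in CD3+. FOXO1, which drives genes of resting lymphocytes, had 72.3 CPM in CD21+ and 131 CPM in CD3+. IKZF3, the Ikaros family member Aiolos, was the 1 factor of this list at least 2-fold higher in CD3+, with 175 CPM in CD21+ and 391 CPM in CD3+ (log2 -1.16). The list name therefore did not hold for every member.

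Of 22 genes of B cell receptor signalling at 1 CPM, 14 were at least 2-fold higher in CD21+, 0 in CD3+ and 8 within 2-fold, with a median log2 ratio of 2.10. Among the receptor-near kinases, SYK had 418 CPM in CD21+ and 12 CPM in CD3+ (log2 5.12), BTK had 361 CPM in CD21+ and 2.96 CPM in CD3+ (log2 6.93) and LYN had 305 CPM in CD21+ and 65.9 CPM in CD3+ (log2 2.21). BLK, a kinase of the same family as LYN that B cells and gamma delta T cells both use in mouse, had 149 CPM in CD21+ and 142 CPM in CD3+, and its interval of -0.0021 to 0.14 on the log2 scale included 0. The adaptors BANK1 and BLNK had 236 and 163 CPM in the CD21+ library and 1.18 and 1.63 CPM in the CD3+ library. VAV2, a guanine exchange factor, had 306 CPM in CD21+ and 3.75 CPM in CD3+, whereas VAV1, used by both lineages, had 204 CPM in CD21+ and 173 CPM in CD3+.

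Downstream of these, PLCG2, the phospholipase of B cells, had 576 CPM in CD21+ and 93.8 CPM in CD3+ (log2 2.62), and PLCG1, that of T cells, had 13.2 CPM in CD21+ and 223 CPM in CD3+ (log2 -4.08). The phosphatase PTPN6, which counters both receptors, stood at 617 CPM in CD21+ and 136 CPM in CD3+ and overlaps LOC110260750 by 2845 bases. BCL10 and MALT1, which join the antigen receptors to NF-kB, were within 2-fold, with log2 ratios of 0.44 and 0.64. INPP5D and PIK3CD, a phosphatase and a kinase of inositol lipids, had log2 ratios of 0.55 and -0.50.

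TNFRSF13C, the receptor through which the survival factor BAFF keeps mature B cells alive, had 241 CPM in CD21+ and 3.06 CPM in CD3+ (log2 6.3). TNFRSF13B, a second receptor for BAFF and APRIL, had 21 CPM in CD21+ and 2.91 CPM in CD3+, and TNFRSF17, that of plasma cells, had 7.27 CPM in CD21+ and 1.97 CPM in CD3+. NFKB2, the NF-kB subunit made active by these receptors, stood at 293 CPM in CD21+ and 61.5 CPM in CD3+. The kinase before it, MAP3K14, was level at 76.4 CPM in CD21+ and 77.5 CPM in CD3+. In all, 4 of 6 members at 1 CPM were 2-fold higher in CD21+ and 0 in CD3+, against 13.4% and 16.6% of all features.

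Germinal centre B cells mutate and select their receptors. Of 14 of their genes, 8 were 2-fold higher in CD21+ and 0 in CD3+, against 13.4% and 16.6% of all features. The median log2 ratio was 2.15. RGS13, a brake on chemokine signalling, had 311 counts in CD21+ and 2 in CD3+, a ratio of 119-fold with an interval from 32.8 to 990.2. LMO2, a transcriptional bridging protein, stood at 55.5 CPM in CD21+ and 0.641 CPM in CD3+, and ELL3, an elongation factor, at 194 CPM in CD21+ and 1.68 CPM in CD3+. BCL6, the repressor that defines the germinal centre state and also follicular helper T cells, had 26.9 CPM in CD21+ and 34.2 CPM in CD3+ (log2 -0.35). EZH2 and MEF2B likewise lay within 2-fold, with log2 ratios of 0.57 and 0.38.

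The plasma cell list was split. IRF4, a factor of activated B and T cells, had 227 CPM in CD21+ and 14 CPM in CD3+ (log2 4.03). MZB1, a chaperone for immunoglobulin that overlaps LOC110259503 over its whole length, had 203 CPM in CD21+ and 8.58 CPM in CD3+ (log2 4.56). PRDM1, the factor that turns B cells into plasma cells and also acts in effector T cells, had 11.8 CPM in CD21+ and 34 CPM in CD3+ (log2 -1.53). XBP1, of the secretory pathway, had 69.7 CPM in CD21+ and 40.8 CPM in CD3+, and SDC1, a plasma cell surface proteoglycan, had 2.5 CPM in CD21+ and 4.29 CPM in CD3+. SLAMF7, shared by plasma cells, NK cells and T cells, had 35.5 CPM in CD21+ and 249 CPM in CD3+ (log2 -2.81). In all, 7 of 16 were 2-fold higher in CD21+ and 3 in CD3+, against 13.4% and 16.6% of all features. The median log2 ratio was 0.83.

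JCHAIN, which joins IgM and IgA into polymers, had 34970 counts in CD21+ and 6512 in CD3+, 1324 and 321 CPM (log2 2.04). The CD3+ level was 24.3% of the CD21+ level, near the 23.8% of CD79A and far from the 0.637% of MS4A1. VPREB1, a surrogate light chain of B cell precursors, had 3.75 CPM in CD21+ and 0.690 CPM in CD3+. The immunoglobulin constant genes matched no feature by symbol and are not analysed here.

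Among genes that part marginal zone from follicular B cells, NOTCH2, the receptor needed for marginal zone cells, had 584 CPM in CD21+ and 119 CPM in CD3+ (log2 2.3). HES1, a Notch target, had 44.9 CPM in CD21+ and 1.58 CPM in CD3+, while DTX1, another one, had 24.2 CPM in CD21+ and 13.3 CPM in CD3+. CXCR5, which leads cells into follicles, had 141 CPM in CD21+ and 17.9 CPM in CD3+ (log2 2.99). CD1D, which presents lipids and is high on marginal zone B cells in mouse, was level at 178 CPM in CD21+ and 159 CPM in CD3+. Of 13 members, 7 were 2-fold higher in CD21+, 1 in CD3+, and the median log2 ratio was 1.5.

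Turning to the T cell side, 16 of 17 receptor and surface genes were at least 2-fold higher in CD3+ and 0 in CD21+, with a median log2 ratio of -6.68. CD6, an adhesion receptor of T cells, had 2.46 CPM in CD21+ and 518 CPM in CD3+ (log2 -7.72), and CD5, of T cells and, in mouse, of a subset of B cells, had 8.63 CPM in CD21+ and 407 CPM in CD3+ (log2 -5.56). CD28, the main co-stimulatory receptor, stood at 0.379 CPM in CD21+ and 85.2 CPM in CD3+ (log2 -7.81). CD27, of the TNF receptor family, had 0.984 CPM in CD21+ and 53.9 CPM in CD3+. TRAT1, an adaptor that steadies the T cell receptor, had 2.76 CPM in CD21+ and 321 CPM in CD3+, and CD96, an adhesion receptor of T and NK cells, had 2.16 CPM in CD21+ and 221 CPM in CD3+.

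The constant genes of the alpha, beta and gamma receptor chains matched no feature by symbol. Variable segments could be read for some: 19 features carried a symbol beginning with TRAV, TRBV or TRDV, a set drawn up after their values were seen, and 12 reached 1 CPM. Together the 19 had 0.265 CPM in the CD21+ library and 76.4 CPM in the CD3+ library. At that CD21+ sum, a segment could reach 1 CPM only through CD3+, so the side of the 12 was fixed beforehand. For 7 of the 12 the CD21+ library had no count. TRDV3, a variable segment of the delta chain, had 1 count in the CD21+ library and 412 counts in the CD3+ library, a ratio of 537-fold with an interval from 95.8 to 21246. TRBV19, of the beta chain, had no count in CD21+ and 13.8 CPM in CD3+, at least 122-fold higher in CD3+. Such segments are short and alike, so their counts may be shared among copies.

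T cell receptor signalling genes had 21 of 24 members at least 2-fold higher in CD3+, 0 in CD21+ and a median log2 ratio of -4.03. ZAP70, the kinase that binds CD247, had 54 counts in CD21+ and 8661 in CD3+ (2.04 and 427 CPM, log2 -7.71). LCK, which starts the signal on CD4 and CD8, had 42.3 CPM in CD21+ and 796 CPM in CD3+ (log2 -4.24), and FYN, its relative, 84.5 CPM in CD21+ and 408 CPM in CD3+ (log2 -2.27). LAT had 9.09 CPM in CD21+ and 373 CPM in CD3+, and LCP2 had 28.5 CPM in CD21+ and 451 CPM in CD3+. THEMIS and UBASH3A, which tune T cell receptor signals, had 0.492 and 0.416 CPM in CD21+ and 102 and 83.4 CPM in CD3+. PTPRC, the phosphatase CD45 of all leukocytes, had 1739 CPM in CD21+ and 3010.1 CPM in CD3+ and lay within 2-fold.

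SYK and ZAP70, kinases of 1 family that serve the B and the T cell receptor, thus lay on opposite sides, with log2 ratios of 5.12 and -7.71. So did BLNK and LCP2, with 6.65 and -3.99. LYN and LCK had 2.21 and -4.24.

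Of 22 T lineage transcription factors, 18 were at least 2-fold higher in CD3+ and 0 in CD21+, with a median log2 ratio of -4.00. BCL11B, which holds cells in the T lineage, lies at 120205008-120295737 on chromosome 7 and had 2 counts in CD21+ and 1234 in CD3+. Its ratio was 804-fold, with an interval from 222 to 6643. GATA3, of T cell development and helper cells, had 0.341 CPM in CD21+ and 102 CPM in CD3+ (log2 -8.22). LEF1 and TCF7, paired factors of naive and memory T cells, had 1.4 and 39.6 CPM in CD21+ and 303 and 789.9 CPM in CD3+. EOMES, of cytotoxic and memory T cells, stood at 2.69 CPM in CD21+ and 293 CPM in CD3+ (log2 -6.77). Its relative TBX21, which in mouse and human some memory B cells also make, was within 2-fold at 60.2 CPM in CD21+ and 98.8 CPM in CD3+ (log2 -0.72). RUNX3 and ZBTB7B, which set the CD8 and the CD4 lineage, had log2 ratios of -0.42 and 0.38. ETS1, shared by lymphocytes, had 535 CPM in CD21+ and 1418 CPM in CD3+ (log2 -1.41).

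Of 15 genes of regulatory and follicular helper T cells, 10 were 2-fold higher in CD3+ and 1 in CD21+. The shares of all features were 16.6% and 13.4%. Members under 1 CPM in CD21+, among them FOXP3, CTLA4 and SH2D1A, passed the filter through CD3+ alone. FOXP3, the regulatory T cell factor, had 5 counts in CD21+ and 324 in CD3+ (0.189 and 16 CPM). CTLA4, a checkpoint receptor, had 0.303 CPM in CD21+ and 27.5 CPM in CD3+, and ICOS, a co-stimulator of follicular helper cells, 2.08 CPM in CD21+ and 121 CPM in CD3+. SH2D1A, the adaptor of SLAM receptors that those helpers need, had 0.644 CPM in CD21+ and 90.3 CPM in CD3+. IL2RA, the alpha chain of the IL-2 receptor and a usual marker of regulatory cells, lay within 2-fold at 49.8 CPM in CD21+ and 33.5 CPM in CD3+ (log2 0.57). CXCR5, also on follicular helpers, was the member higher in CD21+.

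Of 11 gamma delta and innate-like T cell genes, 9 were at least 2-fold higher in CD3+ and 1 in CD21+. The shares of all features were 16.6% and 13.4%. The list median log2 ratio was -5.81. Members under 1 CPM in CD21+, among them SOX13, RHEX, SCART1 and IL23R, passed the filter through CD3+ alone, so their side was fixed beforehand. TRDC had 596 counts in CD21+ and 45656 in CD3+, 99.8-fold more in CD3+ with an interval from 92 to 108. SOX13, a factor of gamma delta T cells in mouse, lies at 64745762-64780942 on chromosome 9 and had no count in CD21+ and 792 counts (39.1 CPM) in CD3+, at least 344-fold higher in CD3+. RHEX, known in human from red cell precursors, stood at 0.644 CPM in CD21+ and 250.4 CPM in CD3+ (log2 -8.6). SCART1, a scavenger receptor of gamma delta T cells in mouse, had 0.757 CPM in CD21+ and 36.1 CPM in CD3+. IL23R, of cells that make IL-17, had no count in CD21+ and 76 counts in CD3+, and it overlaps C6H1orf141 over its whole length. IL17A had no count in either library. CCR6, a chemokine receptor of such cells and of B cells, was higher in CD21+, with 58.4 CPM in CD21+ and 3.3 CPM in CD3+ (log2 4.14).

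Of 20 cytotoxic and NK genes at 1 CPM, 19 were at least 4-fold higher in CD3+, against 9.46% of all features. The median log2 ratio was -6.22. Members under 1 CPM in CD21+, among them GZMB, GNLY, GZMK, PRF1, CST7 and XCL1, passed the filter through CD3+ alone. Their side was fixed beforehand. CTSW and CCL5 were above 1 CPM in both libraries. GZMB, a granule protease, lies at 74705499-74708781 on chromosome 7 and had 2 counts in CD21+ and 1492 in CD3+. Its ratio was 972-fold with an interval from 269 to 8031. GNLY, a pore-forming granule peptide, had 2 counts in CD21+ and 1347 in CD3+ (877-fold, interval 242 to 7251). GZMK, another granule protease, stood at 0.416 CPM in CD21+ and 104 CPM in CD3+ (log2 -7.97). CTSW, a cathepsin of cytotoxic cells, had 9.2 CPM in CD21+ and 1259.9 CPM in CD3+, and PRF1, perforin, 0.379 CPM in CD21+ and 31 CPM in CD3+. CST7, a cystatin that limits granule proteases, had 0.379 CPM in CD21+ and 125 CPM in CD3+ (log2 -8.37). The chemokines CCL5 and XCL1 had 4.51 and 0.189 CPM in CD21+ and 574 and 56.3 CPM in CD3+.

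Receptors shared by NK and T cells were on the same side. KLRK1, the activating receptor NKG2D, had 5.57 CPM in CD21+ and 616 CPM in CD3+ (log2 -6.79), and KLRG1, a receptor of late effector cells, 0.416 CPM in CD21+ and 84.7 CPM in CD3+. NCR1, which encodes NKp46, a receptor found on NK cells, was near the lower limit at 0.227 CPM in CD21+ and 1.38 CPM in CD3+. KLRD1 had no count in CD21+ and 44 counts in CD3+, and KLRF1 had none in either. TYROBP, the DAP12 adaptor of NK and myeloid cells, was the exception at 10.4 CPM in CD21+ and 3.65 CPM in CD3+ (log2 1.51). The summed level of the 21 matched genes was 50 CPM in CD21+ and 3440.4 CPM in CD3+, and the part of NK cells in it was not tested.

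**Figure D4:**
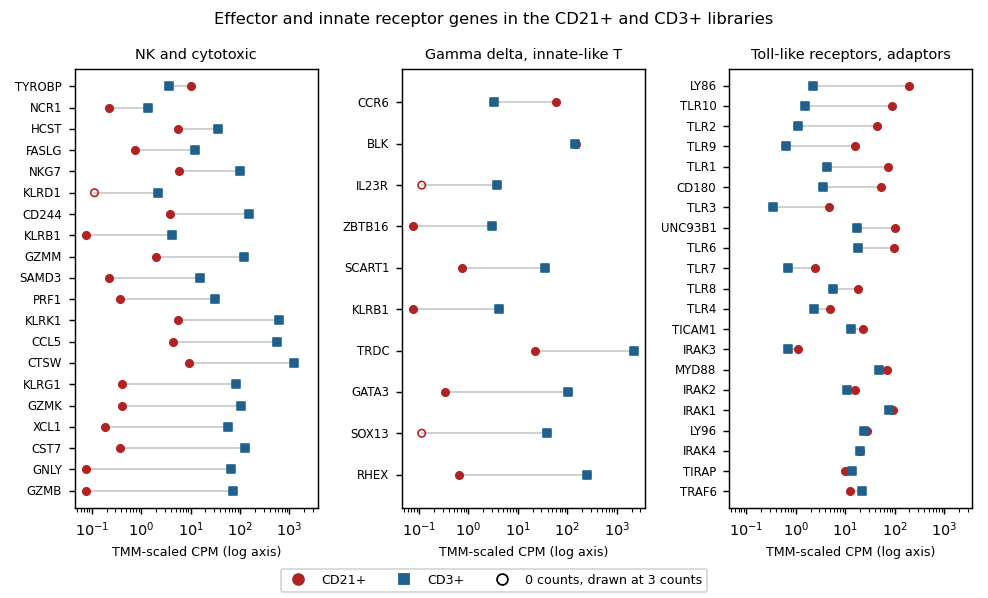
Levels of NK and cytotoxic genes (left), gamma delta and innate-like T cell genes (middle) and genes of Toll-like receptors and their adaptors (right) in the CD21+ library (circles) and the CD3+ library (squares), in TMM-scaled CPM on a logarithmic axis; an open symbol marks 0 counts, drawn at the level of 3 counts. The cytotoxic genes reach 1259.9 CPM (CTSW) in CD3+ with 9.2 CPM in CD21+, whereas LY86 stands at 198 CPM in CD21+ and 2.22 CPM in CD3+.

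The genes whose ratio lay farthest from 1 beyond counting error included some outside these lists. Among features with a symbol, those at the head of that order in CD21+ included PAX5, GP2, BANK1 and MS4A1. GP2, a glycoprotein known from the pancreas and from M cells of the gut, where it takes up bacteria, lies at 25496533-25518210 on chromosome 3. It had 1144 counts (43.3 CPM) in the CD21+ library and 1 count in the CD3+ library, a ratio of 878-fold with an interval from 157 to 34722. CLEC17A, a lectin that human B cells carry, had 244 CPM in CD21+ and 1.33 CPM in CD3+ (log2 7.52). RAPGEF5, an exchange factor for RAP proteins, stood at 133 CPM in CD21+ and 0.641 CPM in CD3+ (log2 7.7). DENND5B, an exchange factor of vesicle traffic, had 1021 counts in CD21+ and 2 in CD3+, 392-fold with an interval from 108 to 3241. LAMP3, a lysosomal membrane protein best known from mature dendritic cells, had 155 CPM in CD21+ and 1.04 CPM in CD3+ (log2 7.23). Of the 11 dendritic cell genes at 1 CPM, LAMP3 included, 5 were 2-fold higher in CD21+ and 3 in CD3+. The shares over all features were 13.4% and 16.6%, and the list median log2 ratio was 0.68. The 3 were BATF3, GZMB and CCR7, and the last 2 are also in the cytotoxic and homing lists. FLT3, a growth factor receptor of dendritic cell precursors, had 2.73 CPM in CD21+ and 1.04 CPM in CD3+. BATF3, a factor of cross-presenting dendritic cells, lay on the other side with 1.29 CPM in CD21+ and 4.83 CPM in CD3+ (log2 -1.91).

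On the CD3+ side, the order began with SOX13, GZMB, RHEX, GNLY and BCL11B. PLCL1, a phospholipase-like protein that binds inositol phosphates, had no count in the CD21+ library and 615 counts (30.3 CPM) in the CD3+ library, at least 267-fold higher in CD3+. CAMK4, a calcium-dependent kinase active in T cells, had 0.795 CPM in CD21+ and 166 CPM in CD3+ (log2 -7.71). CD40LG, the ligand with which helper T cells engage CD40, had 2 counts in CD21+ and 867 in CD3+, 565-fold with an interval from 156 to 4669.6. IL7R, the receptor of resting T cells for IL-7, stood at 0.946 CPM in CD21+ and 198 CPM in CD3+ (log2 -7.71); it overlaps LOC106508147 by 18947 bases.

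Of the features past 4-fold, 79 of the 747 higher in CD21+ and 152 of the 1109 higher in CD3+ have an Ensembl ID and no symbol here. After their values were seen, 4 of these were picked out as the first by the same order. ENSSSCG00000028674 had 55391 counts in CD21+ and 191 in CD3+ (log2 7.8, interval 7.59 to 8.01), and ENSSSCG00000015294 had 38333 counts in CD21+ and 138 in CD3+ (log2 7.74). Both intervals began above that of PAX5, which began at 7.32. On the other side, ENSSSCG00000036013 had 2 counts in CD21+ and 1402 in CD3+ (log2 interval -12.88 to -7.98), and ENSSSCG00000032017 had 10 counts in CD21+ and 3090 in CD3+ (log2 -8.65). No gene name or role is given to them.

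MHC class II genes, which present antigen to CD4 T cells, were higher in CD21+ for 9 of 11 members at 2-fold, with 0 higher in CD3+ and a median log2 ratio of 2.45. CD74, the invariant chain, had 5181 CPM in CD21+ and 909 CPM in CD3+, and the feature named HLA-DRA 2803 CPM in CD21+ and 449 CPM in CD3+. SLA-DQB1 stood at 1129.6 CPM in CD21+ and 199 CPM in CD3+ (log2 2.51). CIITA, the factor that turns these genes on, had 406 CPM in CD21+ and 27.3 CPM in CD3+ (log2 3.9), and SLA-DOA, which tunes peptide loading in B cells, 286 CPM in CD21+ and 15 CPM in CD3+ (log2 4.25). The CD3+ levels were not near 0, with 17.5% of the CD21+ level for CD74 and 6.72% for CIITA. RFXANK and RFXAP, factors present in most cells, lay within 2-fold.

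MHC class I genes gave the contrast within antigen presentation, with 14 of 14 members within 2-fold and a median log2 ratio of 0.07. B2M, the light chain, had 587 CPM in CD21+ and 846 CPM in CD3+, and TAP1, a peptide transporter, 271 CPM in CD21+ and 306 CPM in CD3+. NLRC5, the class I counterpart of CIITA, stood at 389 CPM in CD21+ and 307 CPM in CD3+. The classical class I genes SLA-1, SLA-2 and SLA-3 matched no feature by symbol, and reads of SLA genes may be shared among near-identical copies.

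Co-stimulatory receptors and ligands differed by member. CD80 and CD86, which bind CD28, had 85.3 and 126 CPM in CD21+ and 24 and 40.7 CPM in CD3+ (log2 1.83 and 1.63). PDCD1LG2, a ligand of PD-1, stood at 66 CPM in CD21+ and 10.8 CPM in CD3+, and its receptor gene PDCD1 at 0.454 CPM in CD21+ and 34.9 CPM in CD3+ (log2 -6.26). TIGIT and LAG3, checkpoint receptors, had 4.28 and 0.795 CPM in CD21+ and 73 and 35.3 CPM in CD3+. Of 30 members, 5 were 2-fold higher in CD21+ and 17 in CD3+, against 13.4% and 16.6% of all features. The list median log2 ratio was -2.65. CD48, a ligand on most lymphocytes, was level at 247 CPM in CD21+ and 248 CPM in CD3+.

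Genes of Toll-like receptors, which sense microbial products, and of their partners and adaptors had 12 of 21 members 2-fold higher in CD21+, 0 in CD3+ and a median log2 ratio of 1.67. TLR10 had 87.8 CPM in CD21+ and 1.53 CPM in CD3+ (log2 5.84), TLR2 43.7 CPM in CD21+ and 1.13 CPM in CD3+ (log2 5.27) and TLR1 75.5 CPM in CD21+ and 4.24 CPM in CD3+ (log2 4.15). TLR9, a sensor of unmethylated DNA, had 15.8 CPM in CD21+ and 0.641 CPM in CD3+; it overlaps TWF2 by 9697 bases. LY86, the partner of CD180, stood at 198 CPM in CD21+ and 2.22 CPM in CD3+ (log2 6.48). TLR4, the receptor for lipopolysaccharide that is typical of myeloid cells, had 4.92 CPM in CD21+ and 2.37 CPM in CD3+. The shared adaptors MYD88, IRAK4 and TRAF6 were within 2-fold, with log2 ratios of 0.55, -0.026 and -0.82. MYD88 overlaps ACAA1 over its whole length of 2618 bases. TLR10, TLR2 and TLR1 thus had larger ratios than these 3 adaptors, while 9 of the 21 members of the list lay within 2-fold.

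Among cytokines, LTB and LTA, the lymphotoxins that build lymphoid tissue, had 523 and 28.4 CPM in CD21+ and 95.6 and 3.75 CPM in CD3+. IFNG, interferon gamma, had 8 counts in CD21+ and 686 in CD3+ (0.303 and 33.8 CPM). TNFSF14 and TNFSF11, ligands of the TNF family on activated T cells, had log2 ratios of -7.13 and -5.64. TNF was within 2-fold at 73.3 CPM in CD21+ and 44.5 CPM in CD3+. IL6 had 69 counts in CD21+ and none in CD3+, at least 17.7-fold higher in CD21+. CXCL10, a chemokine induced by interferon, had 22.9 CPM in CD21+ and 1.08 CPM in CD3+; it lies wholly within ART3. IL2, IL4 and IL17A stayed under 1 CPM in both libraries. The list had 5 of 21 members 2-fold higher in CD21+ and 11 in CD3+, against 13.4% and 16.6% of all features.

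Cytokine receptors were 2-fold higher in CD3+ for 17 of 31 members and in CD21+ for 7, against 16.6% and 13.4% of all features. IL2RB, the beta chain for IL-2 and IL-15, had 35.6 CPM in CD21+ and 558 CPM in CD3+ (log2 -3.97), and the common gamma chain IL2RG, used by both lineages, 269 CPM in CD21+ and 329 CPM in CD3+. IL6ST and IL6R, the signalling and binding chains for IL-6, had 15.2 and 11.3 CPM in CD21+ and 306 and 137 CPM in CD3+. IL6ST overlaps LOC102168151 over its whole length of 50529 bases. IL12RB2, for IL-12, stood at 3.63 CPM in CD21+ and 125 CPM in CD3+. IL21R, for the helper cytokine IL-21, had 105 CPM in CD21+ and 40.3 CPM in CD3+, and CSF2RB 53 CPM in CD21+ and 2.22 CPM in CD3+ (log2 4.58). IL1RL1 and IL1R1 had no count in CD21+ and 118 and 110 counts in CD3+, at least 51.2-fold and 47.8-fold higher in CD3+. IFNGR1 and IFNGR2, the chains that receive interferon gamma, had 34 and 201 CPM in CD21+ and 11.7 and 42.4 CPM in CD3+, on the side opposite to IFNG itself.

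Homing receptors also differed by member, with 5 of 23 2-fold higher in CD21+ and 10 in CD3+, against 13.4% and 16.6% of all features. CXCR4, which holds cells near CXCL12, had 202 CPM in CD21+ and 1241 CPM in CD3+ (log2 -2.62). CCR7, which guides cells to T zones, had 50.1 CPM in CD21+ and 168 CPM in CD3+ (log2 -1.74), opposite to CXCR5 with 2.99. CX3CR1, of effector cells, had a log2 ratio of -3.2. S1PR1, which lets lymphocytes leave tissue, was within 2-fold at 233 CPM in CD21+ and 356 CPM in CD3+, and S1PR5, of NK and effector T cells, stood at 4.47 CPM in CD21+ and 21.9 CPM in CD3+. CCR9, of gut homing, was level at 31.7 CPM in CD21+ and 27.9 CPM in CD3+, where it lies wholly within LOC110256224.

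Of 21 integrin and adhesion genes, 1 was 2-fold higher in CD21+ and 9 in CD3+, against 13.4% and 16.6% of all features. ITGA4 and ITGB1, chains of the integrin for VCAM1 and fibronectin, had 192 and 203 CPM in CD21+ and 609 and 597 CPM in CD3+. ITGAL, of the lymphocyte integrin LFA-1, was within 2-fold at 191 CPM in CD21+ and 295 CPM in CD3+. JAML, an adhesion molecule of T cells in epithelia, had 20.2 CPM in CD21+ and 390.1 CPM in CD3+ (log2 -4.27), and ITGA5 3.33 CPM in CD21+ and 93.6 CPM in CD3+ (log2 -4.81). Among complement and Fc receptors, FCER2 and FCRLA of B cells and ITGAM have been given above. C3AR1 and C5AR1, receptors for complement fragments on myeloid cells, had 2.69 and 2.92 CPM in CD21+ and 0.345 and 0.493 CPM in CD3+. CD93 had no count in CD21+ and 120 counts in CD3+, at least 52.1-fold higher in CD3+. Of the 8 measured at 1 CPM, 4 were 2-fold higher in CD21+ and 3 in CD3+, against 13.4% and 16.6% of all features.

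Proliferation genes were higher in CD21+ by small ratios, with 20 of 29 at least 2-fold higher, 0 in CD3+ and 0 past 4-fold. The 2-fold shares of all features were 13.4% and 16.6%. The median log2 ratio of the list was 1.21. TOP2A, a topoisomerase of dividing cells, had 222 CPM in CD21+ and 86 CPM in CD3+ (log2 1.37). CCNB1 and CDK1, which start mitosis, had log2 ratios of 1.7 and 1.48, and the helicase subunits MCM2 and MCM6 had 1.21 and 1.25. STMN1 was level at 180.1 CPM in CD21+ and 184 CPM in CD3+. The list median of housekeeping genes was 0.43, with 15 of 16 members within 2-fold, ACTB at 2357 CPM in CD21+ and 2299.6 CPM in CD3+ and GAPDH at 809 CPM in CD21+ and 635 CPM in CD3+.

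Immediate-early and stress genes had 8 of 26 members 2-fold higher in CD21+ and 2 in CD3+, against 13.4% and 16.6% of all features. The median log2 ratio was 0.64. EGR1 and ATF3, induced by mitogens and stress, had 683 and 153 CPM in CD21+ and 191 and 22.3 CPM in CD3+, and MYC had 335 CPM in CD21+ and 121 CPM in CD3+. FOS and JUN were within 2-fold, with log2 ratios of -0.029 and -0.38. DUSP6, a phosphatase that limits ERK, was higher in CD3+ at 9.35 CPM in CD21+ and 49.7 CPM in CD3+. In the NF-kB list, 4 of 21 were 2-fold higher in CD21+ and 2 in CD3+, not far from the 13.4% and 16.6% of all features. NFKBIA, an inhibitor that NF-kB itself induces, had 268 CPM in CD21+ and 95 CPM in CD3+, and TNFAIP3, another such brake, 57.1 CPM in CD21+ and 233 CPM in CD3+ (log2 -2.03). The 2 feedback genes lay on opposite sides.

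KLF and other quiescence genes had 2 of 20 members 2-fold higher in CD21+ and 5 in CD3+, against 13.4% and 16.6% of all features. TXNIP, which limits glucose uptake, had 52.1 CPM in CD21+ and 202 CPM in CD3+ (log2 -1.95). KLF2, which keeps lymphocytes at rest, was within 2-fold at 160.1 CPM in CD21+ and 225 CPM in CD3+. Interferon response genes had 4 of 26 higher in CD21+ and 3 in CD3+, not far from the 13.4% and 16.6% of all features, and their median of 0.03 ran from -0.01 to 0.17 over the scalings, so it carried no direction. MX2, an antiviral GTPase, had 81.3 CPM in CD21+ and 19.4 CPM in CD3+, and GBP2, induced by interferon gamma, 27.7 CPM in CD21+ and 89.3 CPM in CD3+. BCL2 family and apoptosis genes had 18 of 20 within 2-fold, with MCL1, which keeps lymphocytes alive, at 619 CPM in CD21+ and 639.8 CPM in CD3+ and FASLG, the death ligand of cytotoxic cells, at 0.757 CPM in CD21+ and 12.1 CPM in CD3+.

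Glycolysis and hypoxia genes had 6 of 28 members 2-fold higher in CD21+ and 4 in CD3+, not far from the 13.4% and 16.6% of all features. HIF1A, the oxygen-sensitive factor, had 440.3 CPM in CD21+ and 140.0 CPM in CD3+ (log2 1.65) and overlaps LOC106507611 by 977 bases. PDK1, a kinase that turns pyruvate from mitochondria, lay on the other side at 85.8 CPM in CD21+ and 360.4 CPM in CD3+ (log2 -2.07). Of the 13 mitochondrially encoded genes, 10 were at least 2-fold higher in CD3+ and 0 in CD21+, from ND6 with -0.95 to ND3 with -1.46 on the log2 scale. Their sum was 104195 CPM in CD21+ and 226308 CPM in CD3+. All 13 had lower levels in CD21+. The other scalings moved all log2 ratios by 1 amount, at most 0.14, so they could not turn the side of these genes.

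**Figure D5:**
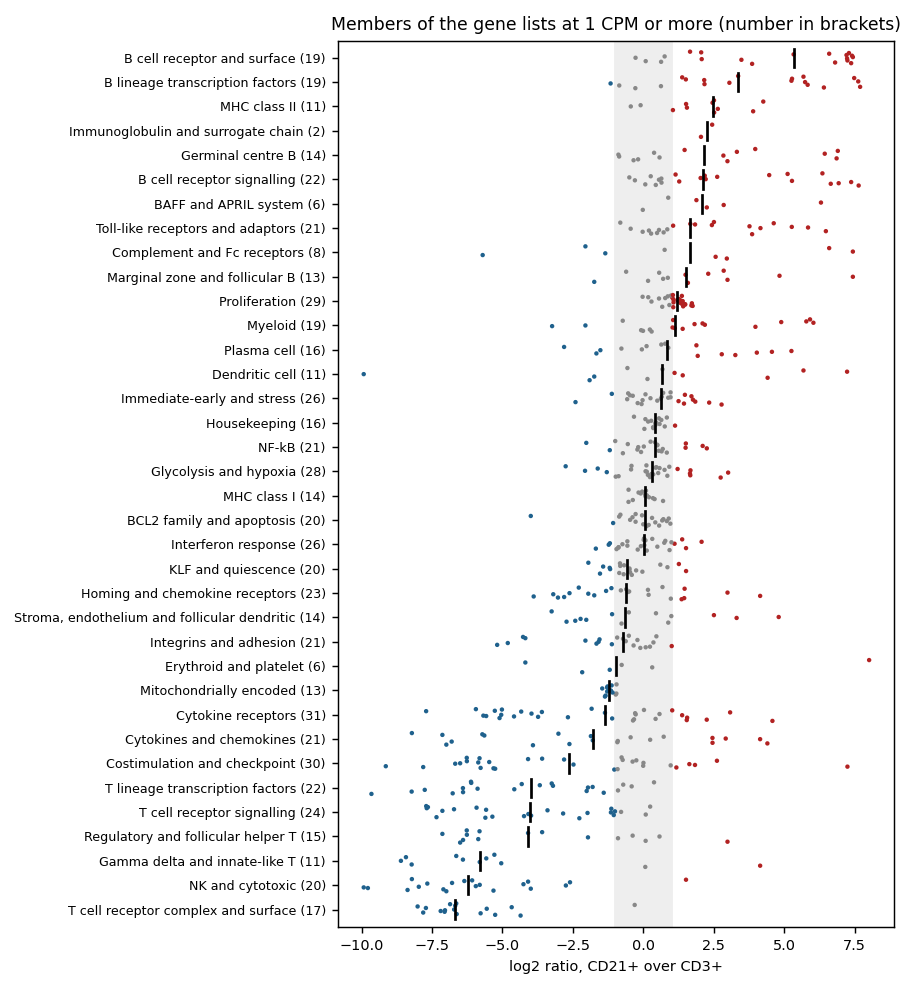
Log2 ratios of CD21+ over CD3+ (x axis) for the members of 36 gene lists at 1 CPM or more, 1 point a gene, with the number of members in brackets; the black bar is the list median, the grey band is 2-fold, and a count of 0 was set to 3 counts. The medians run from 5.33 for B cell receptor and surface genes to -6.68 for T cell receptor complex and surface genes, and MHC class I, interferon response and apoptosis genes centre near 0.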

How the data were processed

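Libraries were mapped to their groups by the labels. The authors trimmed and aligned the reads; Trimmomatic, Bowtie2 and edgeR are named per the submitters' processing notes, without versions, and Sscrofa11.1 is the genome per the series' design text. Counting tool, annotation and strandedness: not given in the sources used here. Genes that overlap, on either strand, and near-identical copies may therefore share counts. The authors' deposited table holds, per the file headers, a count and a value in reads per 1000000 (RPM) for each feature and library. The authors' count columns, read counts per feature not normalized, are recorded as estimated counts as deposited, because 2 lines at their end with no feature ID hold totals. These lines were left out, and all other values were whole, so rounding altered none. The RPM values the authors deposited matched counts divided by column totals, with differences of at most 7.28e-12, and were not used in the ratios. The other deposited table, the authors' tests of the lymphoma clones, was not used.

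An Ensembl ID and no symbol stands for 6841 features; the gene name table held 903 of these and gave 877 a symbol, and 26 were left as IDs because another feature had that symbol. The 36 gene lists hold 750 symbols, of which 649 matched. Some listed genes are not reported here by name or drawn in the plots by gene, but count in the list totals. Members and lists were chosen with earlier results of these data known.

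Levels are CPM scaled by TMM factors of the 2 libraries (1.05 for CD21+ and 0.952 for CD3+; edgeR 4.0.16, R 4.3.3). Features at 1 CPM or more in either library were kept; the median count of these was 662 in CD21+ and 502 in CD3+. Ratios are CD21+ over CD3+, and a count of 0 was set to 3 counts, which gives a lower bound. Exact 95% intervals (Clopper-Pearson, scipy 1.17.1) treat the 2 counts as independent. There is no test and no p-value. The ratios and their intervals were tested on simulated independent counts with known ratios and known totals. Scaling, the filter and the list counts were not tested in this way. Genes named are, in each direction, the 15 with a symbol and at least 10 CPM whose interval lay farthest from 1, the markers, the CD3 chains, and in each list the extremes and members whose role orders the text. Alternatives were other scalings (RPM, DESeq2 1.42.0 size factors, totals without mitochondrial genes, TMM over 8 libraries), other filters and other folds. Levels per kilobase are not analysed here, since no transcript lengths were used. Positions are from RefSeq, Sscrofa11.1.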

Additional observations from a re-analysis of the deposited data

How the results depend on the processing

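No paired analysis was possible because each group has 1 library and no result comes from a test; for the same reason no replicate could be left out. The counts of features past 4-fold depended on the filter and on the fold. With every feature that had a count and 0.5 added to both counts, 1226 were higher in CD21+ and 1880 in CD3+; at 10 CPM or more, 404 and 516; at 2-fold, 1569 and 1945; and at 8-fold, 446 and 792. At 2-fold, the unfiltered table gave 2786 in CD21+ and 3443 in CD3+, and the filter of 10 CPM gave 977 and 1030. The median log2 ratio of all features was 0.0037, and 0.15 with reads per 1000000 of all reads, which moved 30 of 607 listed genes across the 2-fold line, while size factors moved 0, totals without mitochondrial genes 8 and TMM over 8 libraries 3. Of the calls past 4-fold, 40.2% were higher in CD21+, and between 38.7% and 43.9% under the alternative scalings and filters. At 2-fold this share was 44.6%, and between 42.3% and 51.1%, so that with reads per 1000000 of all reads more features were higher in CD21+ (1832) than in CD3+ (1752). Each other scaling moved all gene ratios by 1 amount, at most 0.14 on the log2 scale. A gene ratio past 2-fold therefore could not change sign. Over the listed genes and other scalings, 299 ratios moved out of their 95% counting interval and 2129 did not. No list median past 2-fold changed sign under the other scalings and filters. Over all lists, 70 medians moved by more than 0.1 on the log2 scale and 152 did not. Depth limits the smallest levels: a count of 0 allows up to 0.114 CPM in CD21+ and 0.148 CPM in CD3+.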
